A study of Mus musculus with 45 samples.

Results

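Complement is an innate defence system of proteins that label particles, release peptides which attract and activate leukocytes, and can perforate membranes. The 9 genes described here encode complement proteins and anaphylatoxin receptors that macrophages make: C1qa, C1qb, C1qc, C3, Cfb, Cfp, Serping1, C3ar1 and C5ar1. They were chosen by name as a functional group, and each name matched 1 gene of the 29307 in the count table. All 9 had enough reads to be among the 12905 genes tested.

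The RNA came from bone marrow-derived macrophages of mice whose Famin gene had been engineered to carry a human variant. FAMIN (LACC1) is a purine nucleoside enzyme. The study compared the non-risk variant Faminp.254I, the Crohn's disease risk variant Faminp.254V and the monogenic disease variant Faminp.284R, called p254I, p254V and p284R below, in macrophages left unpolarized (M0) or driven to M1 or M2. The 45 libraries make 9 groups of 5. All mice were C57BL/6N, heterozygously bred and aged 6 to 10 weeks, and the methods state random assignment of littermates to groups. Bone marrow was grown for 6 days with M-CSF. Polarization lasted 24 h, with IFN-γ at 50 ng/mL plus LPS at 20 ng/mL for M1 and IL-4 at 20 ng/mL for M2. Every group carried an engineered allele, and no unmodified mice were used here. The gene counts do not show which variant a library carries, and the genotype labels were not checked. The design gives 5 mice per genotype, so the 3 libraries with the same genotype and number were taken as 3 cultures of 1 mouse (15 mice in all).

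C1q is the recognition molecule of the classical pathway and is assembled from A, B and C chains encoded by C1qa, C1qb and C1qc. Unlike most complement proteins, which the liver supplies to plasma, C1q is made mainly by macrophages and related myeloid cells. C3 is the protein on which all activation routes converge, factor B (Cfb) forms the alternative pathway C3 convertase with cleaved C3, properdin (Cfp) stabilizes that convertase, and C1 inhibitor (Serping1) blocks the proteases of the initiating complexes. C3ar1 and C5ar1 are the G protein-coupled receptors for the anaphylatoxins C3a and C5a.

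The libraries held between 17239009 and 43740283 reads assigned to genes, so 1 CPM, the unit of reads scaled to library size, stood for 17.2 to 43.7 reads. Macrophage markers were high throughout. Adgre1 was at 1270 CPM or more and Csf1r at 1470 CPM or more in all 45 libraries. Cxcl9 lay between 979 and 5340 CPM in M1 and at 1.45 CPM or less in M0, and Arg1 lay between 705 and 1420 CPM in M2 and at 0.719 CPM or less in M0. Nos2 varied widely in M1, from 3.01 to 149 CPM, and was at 0.156 CPM or less in M0. Il12b, another M1 marker, was nearly absent in M1, at 0.201 CPM or less. In the p254I replicate 5 M1 library Arg1 was 40.8 and Retnla 49.1 CPM, the highest among the M1 libraries. The p254I replicate 4 mouse stood apart in M0 and M2. Its M0 library held the highest or lowest value among the 15 M0 libraries for 33.6% of the genes tested, and its M2 library did so for 27.6%. No other M0 library exceeded 20.1%, and no other M2 library exceeded 18.4%. Its M1 library did so for 18.4%, below the 23.0% of the p254I replicate 2 M1 library. Some of the results below are given with and without that mouse, and the means over 15 libraries include it. Without it, the mean ± SD of Cfb in M0 was 0.174 ± 0.112 CPM (0.340 ± 0.651 with it). That of C3 in M0 was 54.97 ± 16.05 CPM (64.75 ± 40.9 with it), and that of C5ar1 in M2 was 102.5 ± 17.6 CPM (116.8 ± 58.0 with it).

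The 9 genes lie on the minus strand of the mm10 genome. C1qb, C1qc and C1qa are neighbours on chromosome 4, at 136880129 to 136886187, 136889804 to 136893065 and 136895917 to 136898803. C3 is at 57203970 to 57228136 and Cfb at 34856374 to 34862518 on chromosome 17. Cfp is on chromosome X (20925454 to 20931555), Serping1 on chromosome 2 (84765387 to 84775444), C3ar1 on chromosome 6 (122847138 to 122856161) and C5ar1 on chromosome 7 (16246743 to 16259540). RefSeq promoter windows of the GRCm38.p6 assembly, reaching from 250 bases before to 50 bases after the annotated start, were given for 6 of the 9 genes. C1qa, Cfb and Serping1 had no entry. The windows of C1qb and C1qc are shown because these neighbouring genes moved together, and those of C3 and C5ar1 because their transcripts showed a large rise and a large fall in M1. Capitals mark letters that fit, on either strand, the NF-kB type motif (GGG and CC with any 5 bases between), TTGCNNAA (C/EBP type, where N is any base) or GAGGAA (PU.1 type). The windows read 5' to 3' on the minus strand, at chr4:136886151-136886450 for C1qb, chr4:136892865-136893164 for C1qc, chr17:57228087-57228386 for C3 and chr7:16259289-16259588 for C5ar1.
C1qb: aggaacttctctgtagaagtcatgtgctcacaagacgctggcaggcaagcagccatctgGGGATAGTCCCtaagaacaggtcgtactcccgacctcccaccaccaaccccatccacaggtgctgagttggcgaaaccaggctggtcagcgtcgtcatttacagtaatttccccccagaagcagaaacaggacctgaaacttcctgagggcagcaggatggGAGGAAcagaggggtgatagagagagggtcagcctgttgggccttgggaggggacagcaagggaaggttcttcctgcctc
C1qc: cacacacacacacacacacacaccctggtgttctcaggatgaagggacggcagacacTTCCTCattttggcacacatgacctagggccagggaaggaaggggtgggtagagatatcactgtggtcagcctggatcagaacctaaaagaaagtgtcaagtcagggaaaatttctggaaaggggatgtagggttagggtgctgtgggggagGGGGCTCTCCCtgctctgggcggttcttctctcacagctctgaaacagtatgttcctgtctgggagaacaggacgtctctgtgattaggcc
C3: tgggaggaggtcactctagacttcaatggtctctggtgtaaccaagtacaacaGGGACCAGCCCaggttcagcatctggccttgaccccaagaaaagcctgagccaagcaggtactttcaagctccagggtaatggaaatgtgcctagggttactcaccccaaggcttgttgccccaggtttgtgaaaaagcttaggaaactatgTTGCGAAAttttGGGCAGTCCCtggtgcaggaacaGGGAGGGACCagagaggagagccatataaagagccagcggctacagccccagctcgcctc
C5ar1: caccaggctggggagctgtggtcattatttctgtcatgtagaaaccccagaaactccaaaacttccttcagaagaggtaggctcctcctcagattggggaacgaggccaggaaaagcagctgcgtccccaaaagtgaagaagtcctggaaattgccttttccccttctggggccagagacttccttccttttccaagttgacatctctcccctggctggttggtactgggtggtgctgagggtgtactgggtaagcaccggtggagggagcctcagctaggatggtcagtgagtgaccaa
In C1qb the NF-kB type letters begin at -191 from the start and the PU.1 type letters at -30. In C1qc the NF-kB type letters begin at -41, overlapping a second match at -40, and the PU.1 type letters at -193. The C3 window held NF-kB type letters at 3 places, beginning at -197, -33 and -10, and C/EBP type letters at -45. The C5ar1 window held none of the letters searched. NF-kB type letters are common, being in 50.8% of the 32851 promoter windows of the table, against 28.3% for the PU.1 type and 10.8% for the C/EBP type. The GAS motif (TTC and GAA with 3 bases between), the STAT6 type motif (TTC and GAA with 4 bases between) and the ISRE type motif (GAAA and GAAA with 2 bases between), held by 8.3%, 6.95% and 3.44% of windows, were in none of the 6 windows. These matches describe the letters in the windows and are not evidence of binding.

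The complement genes changed with polarization, and no change with genotype was found. In M1 the C1q chains, C3, factor B and C1 inhibitor transcripts rose and both anaphylatoxin receptor transcripts fell. In M2 the C1q chains, factor B, C1 inhibitor, properdin and both receptors fell, and C3 alone of the 9 rose. By the quasi-likelihood test of edgeR, with p-values adjusted over all genes by the Benjamini-Hochberg method, 8 of the 9 genes differed between M1 and M0 (6 higher and 2 lower), 9 of 9 between M2 and M0 (1 higher and 8 lower) and 7 of 9 between M1 and M2 (6 higher and 1 lower). Polarization moved most of the transcriptome. Of all genes tested, 77.3% were called for M1 against M0 (37% higher, 40.3% lower), 76.4% for M2 against M0 (36.8% higher, 39.6% lower) and 79.1% for M1 against M2 (39% higher, 40.1% lower). In either direction, the totals of 8, 9 and 7 of 9 stand beside 76.4 to 79.1% of all genes, and in single directions 6 of 9 higher in M1 stand beside 37%, and 8 of 9 lower in M2 beside 39.6%. Cfb passed the low-count filter through its M1 libraries only, so its direction there was set by the filter, and the other 8 passed it in M0. The median log2 fold change of the 9 genes was 0.87 in M1 and -0.94 in M2, where that of all genes tested was -0.03 in each. In bulk RNA, fewer cells that express a gene and less RNA per cell cannot be told apart.

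**Figure D1:**
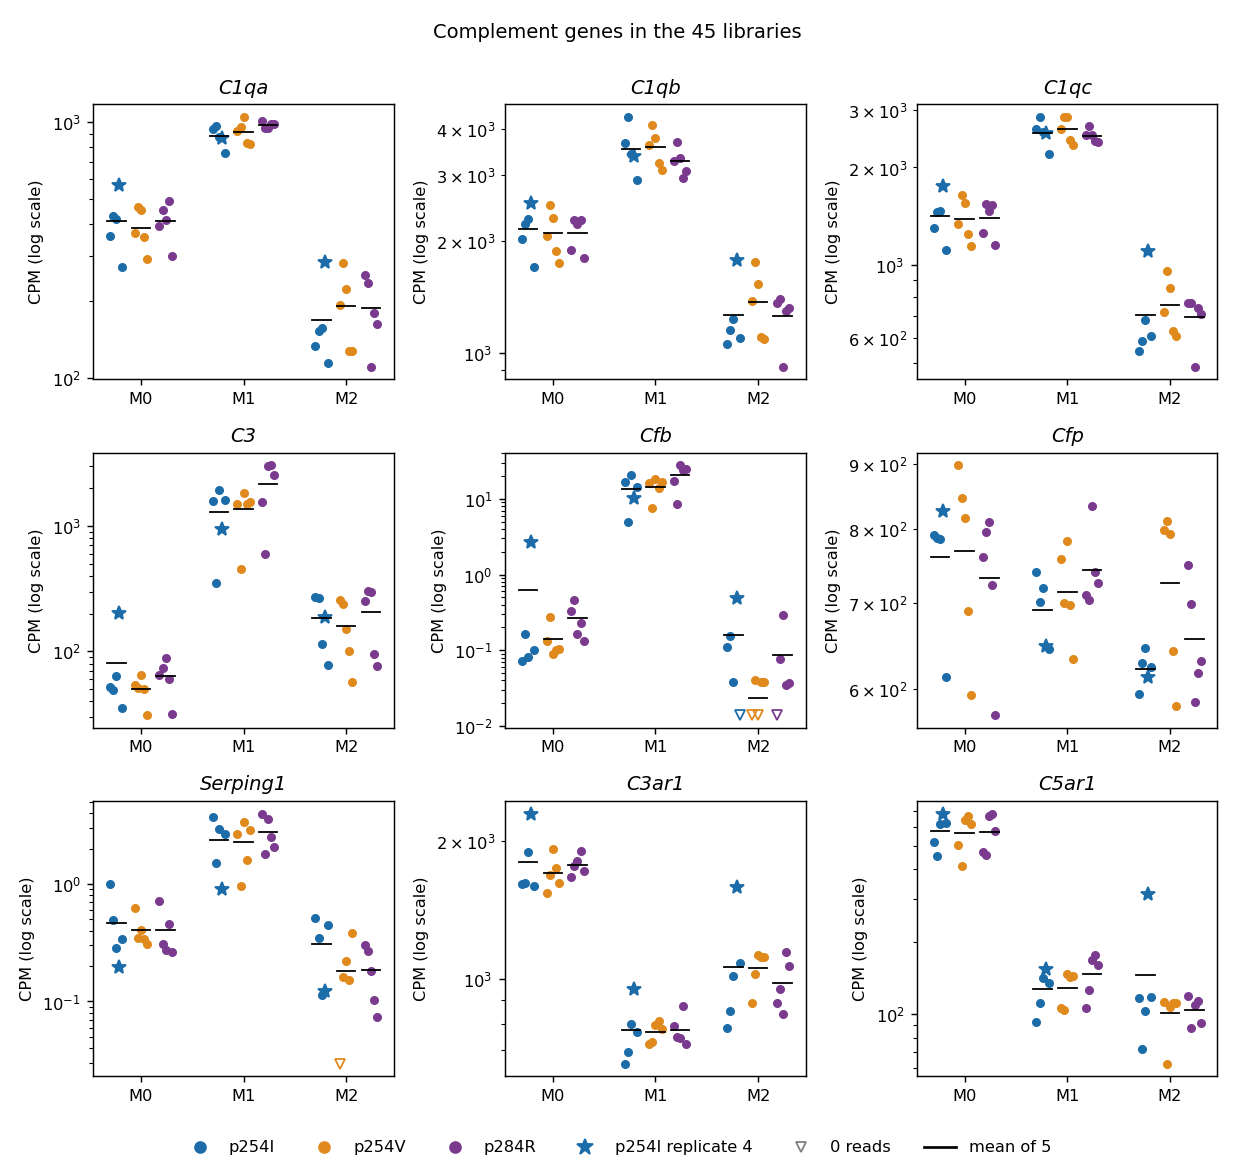
CPM (log scale) of each complement gene in the 45 libraries, by polarization (M0, M1, M2) and genotype (colour). Each point is 1 library, black lines are means of 5, open triangles are libraries with 0 reads and stars are the p254I replicate 4 mouse. The C1q chains step up in M1 and down in M2, C3 and Cfb rise most in M1, C3ar1 and C5ar1 are highest in M0, and the genotypes overlap throughout.

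Per kilobase of exon, which allows levels of different genes to be compared, C1qb was the most abundant of the 9 in every polarization state, at 1944 ± 243 CPM per kb in M0, 3182 ± 370 in M1 and 1191 ± 228 in M2 (mean ± SD, n = 15 libraries each, as in all means over 15 below). In M0 C1qc followed at 726 ± 100 CPM per kb, and then came Cfp at 435 ± 55.8, C3ar1 at 409 ± 44.2, C1qa at 387 ± 77.2 and C5ar1 at 223 ± 36.2. Cfp, C3ar1 and C1qa lay within their spread of each other. C3 was far lower in M0, at 12.6 ± 7.95 CPM per kb, and Serping1 (0.183 ± 0.0921) and Cfb (0.120 ± 0.230) were near the limit of detection. In M1 the order became C1qb, C1qc (1327 ± 101), C1qa (890 ± 75.7), Cfp (413 ± 30.5), C3 (312 ± 161), C3ar1 (179 ± 17.0), C5ar1 (52.3 ± 9.90), Cfb (5.72 ± 2.31) and Serping1 (1.07 ± 0.420), with Cfp and C3 within the spread of C3. The levels of Cfb per kb, and its place in the M0 and M1 orders, are uncertain. Of its exon bases, 79.5% are shared with another gene, and how reads there were assigned is not known. In M2 Cfp (385 ± 46.8) and C1qc (372 ± 83.8) overlapped below C1qb, followed by C3ar1 (240.0 ± 45.3), C1qa (176 ± 57.6), C5ar1 (45.5 ± 22.6) and C3 (35.6 ± 17.5).

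The 3 C1q chain transcripts were highest in M1 and lowest in M2. C1qa had a lowest, median and highest value of 273, 414 and 569 CPM in M0, 759, 948 and 1050 CPM in M1, and 111, 162 and 286 CPM in M2. C1qb had 1705, 2220 and 2530 CPM in M0, 2917, 3379 and 4310 CPM in M1, and 916, 1294 and 1771 CPM in M2. C1qc had 1116, 1463 and 1754 CPM in M0, 2201, 2552 and 2860 CPM in M1, and 488, 710 and 1107 CPM in M2. The M1 ranges of all 3 chains lay above their M0 and M2 ranges without overlap, and the M0 and M2 ranges were separate for C1qc only. Among the genes tested, M1 and M0 ranges did not overlap for 28.6%, M2 and M0 ranges for 23.4% and M1 and M2 ranges for 35.7%.

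In the fit, C1qa was 2.30-fold higher in M1 than in M0 (log2 fold change 1.20, SE 0.12, adjusted p 1.83e-11 by edgeR's quasi-likelihood test). C1qb was 1.64-fold higher (log2 0.71, SE 0.08) and C1qc 1.83-fold higher (log2 0.87, SE 0.08). In M2 the chains fell by 1.14 (C1qa), 0.71 (C1qb) and 0.97 (C1qc) on the log2 scale relative to M0. Within mice the direction did not vary. All 3 chains were higher in M1 than in M0 in 15 of 15 mice and lower in M2 than in M0 in 15 of 15 mice. The M1 to M0 ratio of C1qa ranged from 1.53 to 3.27 between mice, that of C1qb from 1.30 to 1.94 and that of C1qc from 1.46 to 2.08.

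The chains did not change in equal proportion. The ratio of C1qb to C1qa CPM had a geometric mean of 5.31 in M0, 3.73 in M1 and 7.33 in M2. C1qa moved furthest of the 3 in both directions. The ratio of C1qc to C1qa was 3.52 in M0, 2.77 in M1 and 4.04 in M2. The ratio of C1qb to C1qc moved less, at 1.51 in M0, 1.35 in M1 and 1.82 in M2. C1qb and C1qc were closely tied between cultures of 1 state. In M0 the SD of their log2 ratio within genotypes was 0.033, while the SD of log2 CPM was 0.20 for C1qb and 0.22 for C1qc. In M1 the SD of the ratio was 0.065 and in M2 0.076. C1qa followed C1qb less closely, with an SD of 0.14 for their log2 ratio in M0 and 0.24 in M2, and in M1 the SD of the C1qc to C1qa ratio was as small (0.064) as that of C1qb to C1qc.

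**Figure D2:**
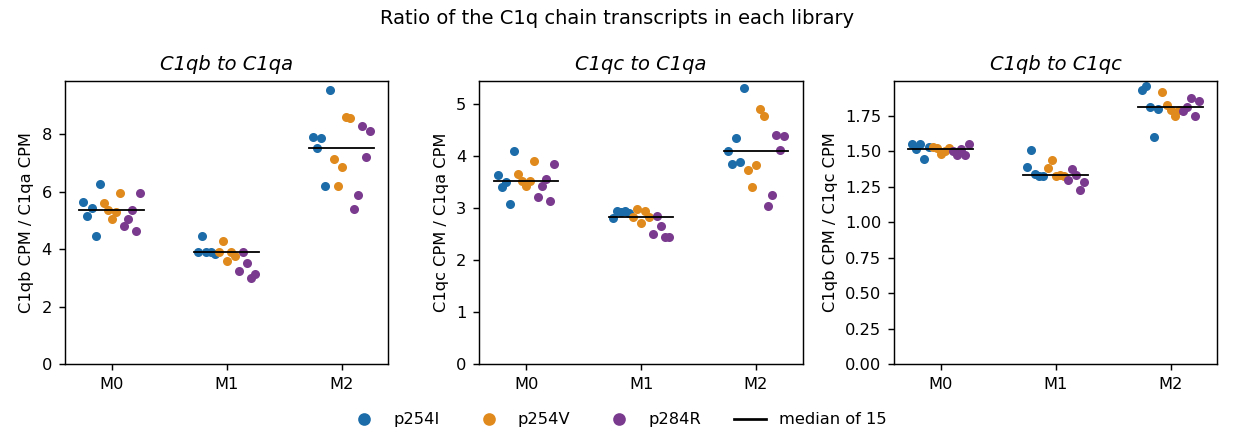
Ratio of CPM between C1q chain transcripts in each of the 45 libraries (points, coloured by genotype), by polarization, with axes from 0 and lines at the median of 15. The ratios to C1qa are lowest in M1 (geometric means 3.73 for C1qb and 2.77 for C1qc) and highest in M2 (7.33 and 4.04), and the C1qb to C1qc ratio varies least between libraries in M0 and M2.

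C3 showed the second pattern, with a rise in both states. Its lowest, median and highest values were 31.0, 54.0 and 202 CPM in M0, 350, 1565 and 3048 CPM in M1, and 57.0, 188 and 303 CPM in M2. All M1 libraries lay above all M0 and M2 libraries, whereas M0 and M2 overlapped. C3 was 24.5-fold higher in M1 than in M0 (log2 4.62, SE 0.32, adjusted p 3.67e-16 by edgeR's quasi-likelihood test) and 2.87-fold higher in M2 than in M0 (log2 1.52, SE 0.29, adjusted p 1.04e-05). The rise in M1 was seen in 15 of 15 mice and ranged from 4.72-fold to 81.5-fold, with a median of 30-fold. The rise in M2 was seen in 14 of 15 mice. The exception was p254I replicate 4, whose M0 culture held 202 CPM against 31.0 to 88.7 CPM in the other 14. Without that mouse the log2 fold changes of C3 were 4.88 in M1 and 1.76 in M2.

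Few factor B reads were counted outside M1. Cfb had a lowest, median and highest value of 0.0719, 0.132 and 2.66 CPM in M0 and 4.88, 16.6 and 27.7 CPM in M1. In M2 it ranged from 0 to 0.495 CPM, with a median of 0.038. In reads, the 15 libraries held 143 in all in M0, 6339 in M1 and 39 in M2, where 4 libraries held none. The M1 range was separate from both others, and M0 and M2 overlapped. The fitted M1 to M0 difference was 5.80 on the log2 scale (SE 0.35, adjusted p 2.13e-18 by edgeR's quasi-likelihood test). Cfb passed the low-count filter through M1 only, so that direction was set by the filter and the p-value is no support for it. A single library weighed on the fitted difference: the p254I replicate 4 M0 culture held 68 of the 143 M0 reads, and without that mouse the log2 fold change was 6.64. In M2 Cfb was lower than in M0 (log2 -1.88, SE 0.68, adjusted p 0.0128), also without that mouse (log2 -1.43, adjusted p 0.0238). That call was not made by limma-voom (log2 -1.57, adjusted p 0.086). Cfb shares 79.5% of its exon bases with a same-strand read-through gene, Gm20547, which was listed with 0 reads in all libraries. The counting tool is not given, so how reads in the shared bases were assigned is not known. Whether Cfb reads were lost there was not tested. The Cfb counts, and its levels per kilobase, may therefore be too low.

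C1 inhibitor was also low and highest in M1. Serping1 had a lowest, median and highest value of 0.196, 0.339 and 1.01 CPM in M0, 0.902, 2.65 and 3.96 CPM in M1, and 0, 0.180 and 0.517 CPM in M2. The M1 range met the M0 range at its lower end and lay above the M2 range. Serping1 was 5.78-fold higher in M1 than in M0 (log2 2.53, SE 0.24, adjusted p 2.95e-12 by edgeR's quasi-likelihood test) and higher in 15 of 15 mice. It fell by 0.94 on the log2 scale in M2 (SE 0.31, adjusted p 0.00622), a difference that rests on 190 reads in M0 and 89 in M2 over 15 libraries each.

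Properdin differed least between states. Cfp averaged 754 ± 96.8 CPM in M0, 716 ± 53.0 in M1 and 668 ± 81.3 in M2, and the ranges overlapped. The M1 to M0 difference was not called (log2 -0.07, SE 0.06, adjusted p 0.235 by edgeR's quasi-likelihood test). Leaving out TMM scaling shifts the M1 to M0 log2 fold changes by about -0.10, and by the same test the difference was then called (-0.17, adjusted p 0.00153). The M2 to M0 difference was small and called (log2 -0.18, SE 0.06, adjusted p 0.00532), with lower values in 13 of 15 mice. M1 and M2 differed by 0.10 on the log2 scale (adjusted p 0.096), a difference that was called once the fit took replicate number as a block (0.10, adjusted p 0.026).

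The anaphylatoxin receptors went the other way from C3 in M1. C3ar1 had a lowest, median and highest value of 1544, 1725 and 2298 CPM in M0, 654, 767 and 953 CPM in M1, and 783, 1026 and 1587 CPM in M2. C5ar1 had 414, 620 and 681 CPM in M0, 92.6, 142 and 176 CPM in M1, and 62.4, 111 and 317 CPM in M2. For C5ar1 the M0 range lay above both others. For C3ar1 the M0 range lay above the M1 range and met the M2 range. C3ar1 was 2.28-fold lower in M1 than in M0 (log2 -1.19, SE 0.07, adjusted p 1.96e-18 by edgeR's quasi-likelihood test) and 1.71-fold lower in M2 (log2 -0.77). C5ar1 was 4.27-fold lower in M1 (log2 -2.10, SE 0.14, adjusted p 8.24e-17) and 4.97-fold lower in M2 (log2 -2.31, SE 0.14, adjusted p 9.72e-18). Both receptors were lower than in M0 in 15 of 15 mice in each state.

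The order of M1 and M2 differed between the receptors. C3ar1 was lower in M1 than in M2 in 15 of 15 mice (log2 -0.42). C5ar1 was higher in M1 than in M2 in 11 of 15 mice, and the difference was not called (log2 0.22, adjusted p 0.138 by edgeR's quasi-likelihood test). It was called once replicate number entered as a block (0.24, adjusted p 0.0237) and without the p254I replicate 4 mouse (0.36, adjusted p 0.00185). That mouse's M2 culture held 317 CPM of C5ar1 against 62.4 to 119 CPM in the other 14, and 1587 CPM of C3ar1 against 783 to 1146 CPM.

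**Figure D3:**
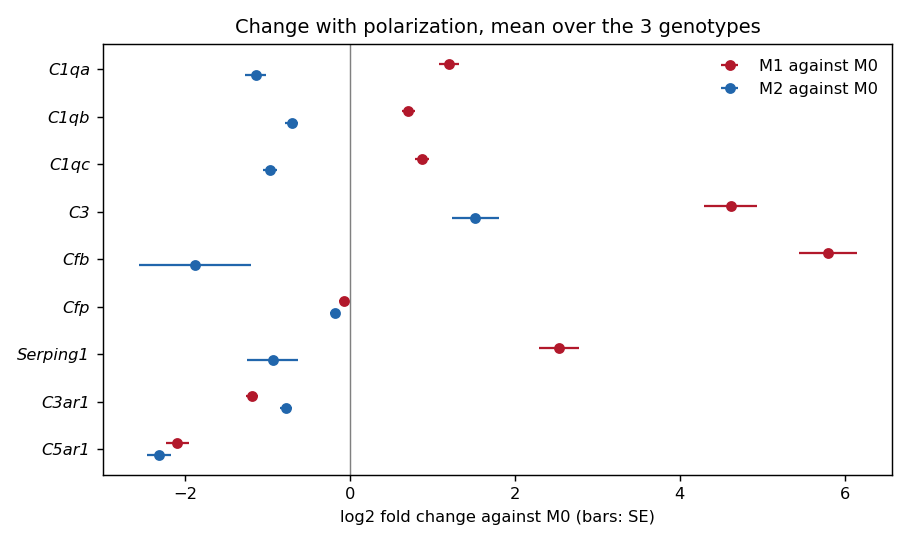
Log2 fold change against M0 of each complement gene in M1 (red) and M2 (blue), as the mean over the 3 genotypes, with bars for the SE of the fit. Cfb (5.80), C3 (4.62) and Serping1 (2.53) have the largest rises in M1, C3 (1.52) alone lies above 0 in M2, and C3ar1 and C5ar1 lie below 0 in both states.

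The size of the C3 and Cfb rise varied with the replicate number. In M1 the 3 cultures numbered 2 held 350, 455 and 600 CPM of C3, below the 952 to 3048 CPM of the other 12. They held 4.88, 7.47 and 8.64 CPM of Cfb, below the 10.3 to 27.7 CPM of the other 12. The M1 to M0 ratio of C3 was 7.11 to 8.83 in these 3 mice and 24.3 to 81.5 in the others, p254I replicate 4 aside (4.72). The pattern was not special to complement: for 18.6% of the genes tested, the 3 M1 libraries numbered 2 all lay above or all below the other 12. In M0 the 3 cultures numbered 5 were below the other 12 for C1qa, C1qb, C1qc, C3 and Cfp, as was so, below or above, for 8.36% of genes. In M0 and in M2 the cultures numbered 2 were below the other 12 for C5ar1 (8.63% and 9.28% of genes, below or above). Single members also lay apart from the other 12, with Serping1 above in M0 number 1 (6.95% of genes), C3ar1 above in M1 number 4 (0.976%), C1qc below in M1 number 5 (0.604%) and C3 below in M2 number 5 (1.33%). What a replicate number stands for (a litter, a day or a sequencing lane) is not given in the sources used here.

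**Figure D4:**
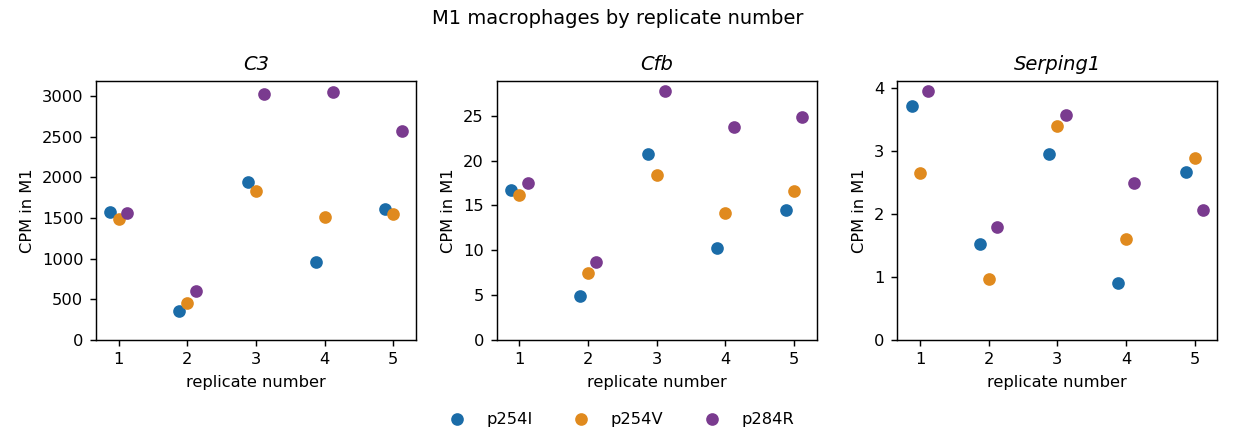
CPM of C3, Cfb and Serping1 in the 15 M1 libraries by replicate number and genotype (colour), each point 1 library and axes from 0. The 3 libraries numbered 2 are lowest for C3 (350 to 600 CPM) and Cfb (4.88 to 8.64 CPM) whatever the genotype, and p284R is the highest genotype in numbers 2 to 5 for C3 and in all 5 numbers for Cfb.

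No complement gene was called different between genotypes. None of the 9 had an adjusted p under 0.05 by the edgeR test in any of 12 genotype comparisons (each pair of genotypes in M0, M1 and M2 and over their mean) or 4 interactions with polarization. DESeq2 and limma-voom called none either. At an unadjusted p under 0.05, the genes were Cfb (p254V against p254I over the mean and in M0, and both M1 interactions) and C5ar1 (p284R and p254V against p254I in M2) and Cfp (p254V against p254I in M2). At that threshold stood 2.5% of all genes for p254V against p254I over the mean, 1.79% in M0 and 2.55% in M2, 1.15% for p284R against p254I in M2, and 2.76% and 0.86% for the M1 interactions of p284R and p254V. Few genes of any kind were called: 0.263% for p284R against p254I in M1, 0.0775% for p284R against p254V in M1, 0.0155% for p284R and for p254V against p254I over the mean of states, 0.00775% for p284R against p254I in M2, and 0 in the others. No member had genotype groups whose ranges did not overlap, where 0.604% of genes did for p284R against p254I in M1, 0.62% for p284R against p254V in M1 and 0.0697 to 0.341% in the other 7 comparisons.

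The genotype averages of most members lay close together. In M1, C1qa was 883 ± 80.9 CPM in p254I, 919 ± 94.9 in p254V and 975 ± 26.7 in p284R (n = 5 each). Over the 3 states, the log2 difference of p284R from p254I was 0.10 for C1qa with a 95% confidence interval from -0.14 to 0.35, -0.05 for C1qb (-0.21 to 0.11), -0.03 for C1qc (-0.20 to 0.14), 0.04 for Cfp (-0.07 to 0.16), -0.05 for C3ar1 (-0.19 to 0.10) and -0.10 for C5ar1 (-0.37 to 0.18). For p254V against p254I these intervals ran from -0.19 to 0.30 for C1qa, -0.13 to 0.19 for C1qb, -0.14 to 0.20 for C1qc, -0.02 to 0.21 for Cfp, -0.18 to 0.11 for C3ar1 and -0.45 to 0.10 for C5ar1. The intervals were wider for C3 (-0.38 to 0.76 for p284R against p254I) and for Serping1 (-0.78 to 0.34). All these intervals over the 3 states, and that given for Cfb below, treat the 3 cultures of a mouse as independent. They can therefore be too narrow.

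The wider genotype differences were in C3, Cfb, C5ar1 and Serping1. For Serping1 in M2, the log2 differences from p254I were -0.70 in p284R (SE 0.58) and -0.65 in p254V (SE 0.58). Neither was called, and both rest on few reads. In M1, C3 held 1571, 350, 1942, 952 and 1612 CPM in p254I, 1486, 455, 1832, 1509 and 1545 CPM in p254V, and 1565, 600, 3019, 3048 and 2570 CPM in p284R, in the order of the replicate numbers. Within a replicate number, p284R was the highest genotype in numbers 2 to 5, and in number 1 it lay between the other genotypes. The difference of p284R from p254I was 0.75 on the log2 scale (SE 0.49, 95% interval -0.23 to 1.73, adjusted p 0.886 by edgeR's quasi-likelihood test), and the replicate block did not change the call (adjusted p 0.631). The same difference for Cfb was 0.61 (SE 0.42, adjusted p 0.909, or 0.586 with the replicate block), and p284R was the highest genotype for Cfb in all 5 numbers. The Cfb difference of p254V from p254I in M0 was -2.06 (unadjusted p 0.0166) and became 0.37 without the p254I replicate 4 mouse. Over the mean of states it was -1.56 (95% interval -2.76 to -0.36), and -0.41 without that mouse. In M2, where the p254I libraries held 3, 4, 1, 16 and 0 reads of Cfb and the p254V libraries 0, 1, 0, 1 and 1, it was -2.73 (SE 1.54, unadjusted p 0.0844), and -1.62 without that mouse. The Cfb interactions with M1 became -0.76 and -0.34 from 1.76 and 2.18. The C5ar1 differences of p284R and p254V from p254I in M2, -0.48 and -0.53, became 0.03 and -0.02 without that mouse, while that of Cfp (0.22) did not move.

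Other complement genes of a list of 54 were read from the same fit, and 25 of them had enough reads to be tested. In M1, 9 of the 25 were higher, 12 lower and 4 not called, and their median log2 fold change was -0.24. In M2, 5 were higher, 15 lower and 5 not called, with a median of -0.70. Among all genes tested, 37% were higher and 40.3% lower in M1, and 36.8% higher and 39.6% lower in M2. The M1 totals of the 25 thus lay near those of all genes. The initiation genes of the classical and lectin pathways stood on both sides in M1, with 7 of 10 higher and 3 lower, and in M2 none was higher and 6 were lower. C1s1 and Masp1 passed the low-count filter through M1 only and Fcnb through M0 only, so the direction of these 3 was set by the filter and the counts support nothing. C4b, whose product is part of the classical C3 convertase, was at 0.939 ± 0.482 CPM in M0 and 77.0 ± 16.4 CPM in M1 (log2 6.38, SE 0.18, adjusted p 1.62e-29 by edgeR's quasi-likelihood test), and fell by 1.82 in M2. The C1 protease gene C1ra (log2 2.88), the related C1rl (2.25) and C2 (1.65) also rose in M1. For the C1 protease gene C1s1 (5.34) and the lectin pathway protease gene Masp1 (4.01) the fitted values only describe, because the filter set their direction. C4b and C4a, C1ra and C1rb, and C1s1 and C1s2 are pairs of close paralogs, so the split of reads within each pair is uncertain. Of the genes named here and in the next paragraph, C1rl, C1s1, Masp1, C2, Colec12, Cd55, C5ar2, Itgam and C8g (with Fbxw5) overlap other annotated genes. C2 shares 42.8% of its exon bases with Gm20547. The strand setting is not given, so how reads in shared bases were assigned is not known.

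Of 9 receptor and binding protein genes tested, 6 were lower and 2 higher in M1, beside 40.3% and 37% of all genes. Of 4 membrane regulator genes 2 were lower. The largest falls were in the C3b receptor gene Vsig4 (log2 -6.32, SE 0.52, from 1.24 ± 0.80 CPM in M0), the collectin gene Colec12 (-4.09), the convertase decay factor gene Cd55 (-2.99), the alternative C5a receptor gene C5ar2 (-1.76), the complement receptor 4 subunit gene Itgax (-1.40) and Cd93 (-1.39). C5ar2 was lower in M2 as well (-1.61), from 13.8 ± 2.18 CPM in M0 to 4.08 ± 0.902 in M1 and 4.48 ± 1.70 in M2, the direction seen for C3ar1 and C5ar1. In M2 the called rises were Itgax (3.63), its partner Itgb2 (1.21), the C1q-binding protein genes C1qbp (0.98) and Calr (0.92), and Itgam (0.25). The 6 largest falls in M2 were Fcnb (-3.07, a direction set by the filter), Vsig4 (-2.16), C1rl (-1.97), Cd93 (-1.88), Cd55 (-1.83) and C4b (-1.82). Terminal pathway genes were hardly present: of 7, C8g alone passed the filter, at 1.05 ± 0.327 CPM in M0, and factor D (Cfd) was listed at 0 in all libraries.

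**Figure D5:**
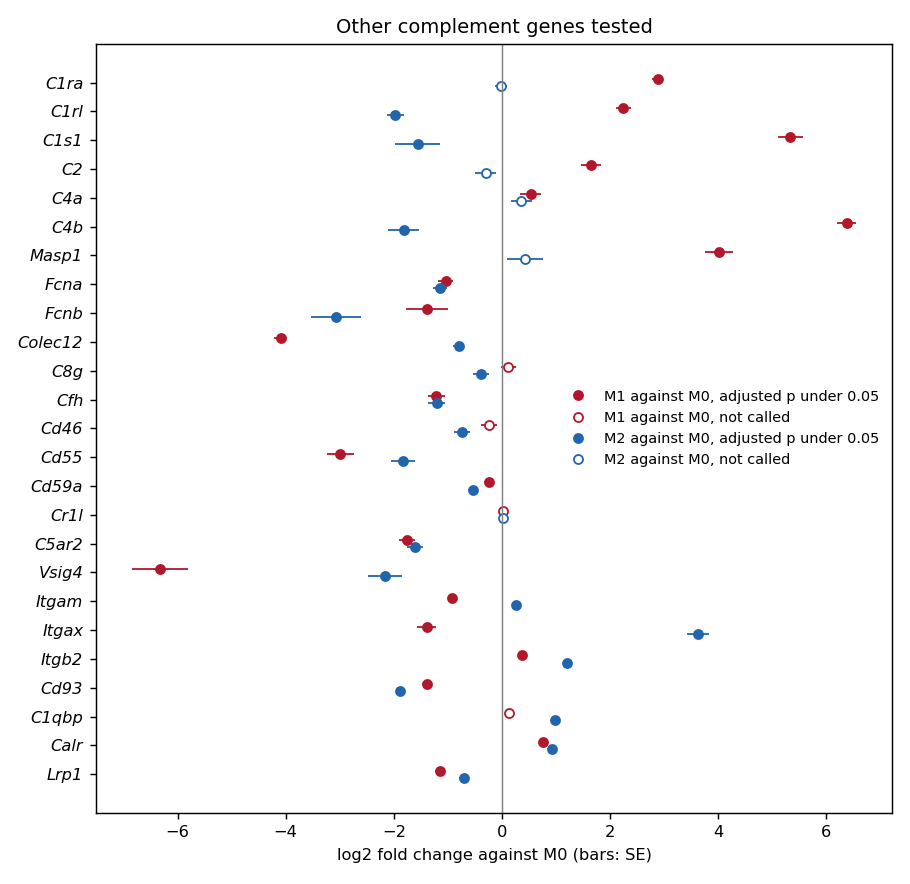
Log2 fold change against M0 in M1 (red) and M2 (blue) of the 25 other complement genes tested, with bars for the SE of the fit; filled points have an adjusted p under 0.05 and open points do not. C4b (6.38) and C1s1 (5.34) lie furthest right in M1, Vsig4 (-6.32) and Colec12 (-4.09) furthest left, and Itgax (3.63) furthest right in M2. The direction of C1s1 was set by the low-count filter, which it passed through M1 only.

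The genes whose profiles over the 45 libraries were most like each member were found by the root mean square (RMS) difference of log2(CPM + 1), each profile centred on its own mean. C1qc was second nearest to C1qa (0.268, after Ly86 at 0.254 and before Il10ra at 0.272), and C1qb was second nearest to C1qc (0.187, between Lfng at 0.159 and Atp8a1 at 0.195). The nearest to C1qb were Rassf5 (0.168), Sbno2 (0.185) and Camk1d (0.186), with C1qc next (0.187). C1qa and C1qb were further apart (0.431), with C1qb ranked 90 from C1qa and C1qa ranked 1072 from C1qb. From C1qc, C1qa was ranked 18. Cfb was nearest to Il27 (0.33), Phf11a (0.339) and Phf11b (0.341), and C3 to Hrh2 (0.75), Cst7 (0.759) and Slamf8 (0.776). Those of Serping1 were Prm1 (0.26), Arel1 (0.266) and Pcgf5 (0.27), and those of Cfp were Exoc3 (0.115), Fam53b (0.12) and Gpatch8 (0.123). C3ar1 was nearest to Cd37 (0.155), Sirpa (0.16) and Glipr1 (0.163), and C5ar1 to Xylt2 (0.3), B4galt6 (0.331) and Arap3 (0.392). The distance scales with the variation of the member itself, whose RMS deviation from its own mean was 2.05 for C3, 1.83 for Cfb, 1.11 for C5ar1, 1.03 for C1qa, 0.791 for C1qc, 0.702 for Serping1, 0.619 for C1qb, 0.525 for C3ar1 and 0.171 for Cfp. These are descriptions over libraries that share polarization and mouse. The added 1 CPM compresses the profiles of Cfb and Serping1, whose medians in M0 were 0.132 and 0.339 CPM. Their distances and deviations are therefore not comparable with those of the other members.

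Markers of other cell types were measured beside the complement genes. The summed level of 7 stromal and fibroblast markers was 17.4 to 92.2 CPM in M0, 6.87 to 21.1 in M1 and 10.1 to 34.1 in M2. Of these markers 4 were at a mean of 1 CPM or more in M0. The sum of 9 neutrophil and myeloid precursor markers was 30.3 to 331 CPM in M0, 46.8 to 154 in M1 and 17.8 to 82.4 in M2, with 5 of 9 at 1 CPM or more in M0. The sum of 5 dendritic cell markers was 0.717 to 2.31 CPM in M0, 209 to 432 in M1 and 4.14 to 14.1 in M2, with 2 of the 5 at 1 CPM or more in M1. The part of these cell types in the M1 rises was not tested. The sums of 5 B cell markers and of 6 T and NK cell markers were at most 11.8 and 1.32 CPM, and no marker of these lists was at 0 in all libraries of a state.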

How the data were processed

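The authors prepared stranded mRNA libraries and sequenced single-end reads, and deposited a table of read counts per gene and a table of CPM values for 11900 of the genes. The methods name TrimGalore and HISAT2, whereas the deposited design text names Cutadapt and STAR, both with mm10. The counting tool, annotation and strand setting are not given in the sources used here. The deposited counts were used. The deposited CPM gave whole reads for 100.0% of values (within 0.05 reads), equal to the counts. Gene names and exon lengths came from GENCODE M21 (29146 of 29307 identifiers named), and promoters from RefSeq.

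Counts were fitted in edgeR 4.0.16 (R 4.3.3) with TMM library sizes (factors 0.939 to 1.1), filterByExpr over the 9 groups and robust quasi-likelihood tests of the 9 group means over 45 libraries, with Benjamini-Hochberg adjustment over 12905 genes and a threshold of 0.05. Polarization contrasts are means over genotypes. The SE is the log2 fold change over the square root of F. Levels are CPM with TMM library sizes. No pair of libraries was identical, and no columns were left unmapped.

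The members and gene lists were chosen with earlier results of these data known. All 9 members are named, with, of the other complement genes, the 6 largest rises and falls called in each state and the 3 nearest profiles per member. C5ar2 in M2, C8g and Cfd were added after their values were seen. Thbd was not analysed here. Alternatives were DESeq2 1.42.0 and its size factors, limma 3.58.1 (voom), no TMM, other filters, replicate and mouse blocks, fits of the compared libraries alone, counts summed per mouse and leaving out each mouse. Reads recovered from the CPM and a fixed mouse block for the interactions were chosen after seeing the data.

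The replicate numbers pair the cultures of 1 mouse across polarization, per the 5 mice per genotype of the design. Over 8404 genes with a mean of 10 CPM or more, deviations of same-numbered libraries from their group means correlated above 0.1 in 15 of 15 genotype pairs in M0 and in M1 and 13 of 15 in M2, and in 11, 15 and 11 of 15 polarization pairs in p254I, p254V and p284R.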

Additional observations from a re-analysis of the deposited data

Results flagged for a closer look

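There were 81 sets of 5 libraries (9 genes in 9 groups). In 14 of them, the gap from the highest or lowest library to the next exceeded 0.71 of the whole range. Chance flags about 1 in 20 where values are normal and sets independent. These sets hold CPM, share mice and in part rest on few reads, so that rate is only a rough guide. No explanation was tested for any of the 14. The p254I replicate 4 mouse gave 6 of the 14. Its M0 library was highest for C3 (202 CPM against 35.1 to 63.9 in the other 4) and for Cfb (2.66 against 0.0719 to 0.165). Its M2 library was highest for C1qa (286 against 115 to 156), C1qb (1770 against 1050 to 1230), C1qc (1110 against 546 to 679) and C5ar1 (317 against 71.6 to 118).

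The p284R replicate 3 mouse was lowest in M2 for C1qb (916 CPM against 1290 to 1390) and C1qc (488 against 710 to 767), highest in M2 for Cfb (0.288 against 0 to 0.0765, or 8 reads) and highest in M1 for Cfp (835 against 704 to 740). The p254V replicate 2 mouse was lowest in M1 for C3 (455 CPM against 1490 to 1830), lowest in M2 for C5ar1 (62.4 against 107 to 112) and highest in M0 for Cfb (0.276 against 0.0902 to 0.131, or 8 reads). The p254I replicate 5 mouse was lowest in M0 for Cfp (613 CPM against 786 to 827).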

How the results depend on the processing

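Of the 4315 recomputed log2 fold changes of the 9 genes, 4301 kept the side of the threshold, 12 passed it newly and 2 no longer passed it, and none that was called changed direction. The 2 were Cfb in M2 against M0 by limma-voom (-1.57, adjusted p 0.086) and with mouse as a random block (-1.58, adjusted p 0.0755). The 12 were Cfp in M1 against M0 without TMM, Cfp in M1 against M2 under 6 alternatives and C5ar1 in M1 against M2 under 5. The replicate block and mouse blocks called Cfp (0.10 to 0.11) and C5ar1 (0.24 to 0.28) between M1 and M2, and changed no other call than these and Cfb. Leaving out each mouse kept 8 members called for M1 against M0, 9 for M2 against M0 and 7 to 8 for M1 against M2, and 0 in all genotype comparisons. Requiring at least 10 counts in every library removed Cfb and Serping1, and left 4 of the other complement genes higher in M1 (9 otherwise) and 9 lower in M2 (15 otherwise), because fewer genes were tested.

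Over all genes, counts for p284R against p254I in M1 were unstable: 34 in the fit as reported, 64 by DESeq2, 64 with the replicate block, 11 by limma-voom, 1 with only the compared libraries, and 0 (without p284R replicate 5) to 109 (without p284R replicate 2). For p284R against p254V in M1 they were 10, 21, 36, 0 and 0, and 0 to 65. Averaged over states, p284R against p254I gave 2, 0 with counts summed per mouse, 11 by DESeq2 and 2 to 19 without 1 mouse, and p254V against p254I gave 2 and 0 to 5. Depth limits Cfb and Serping1 outside M1, where single libraries held 0 to 68 reads of Cfb.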
